A study of Mus musculus with 12 samples.

Results

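Basement membranes are thin sheets of matrix under epithelia and around muscle and vessels, and the 10 genes described here encode the type IV collagens that form their network and proteins built into or beside it. Type IV collagen chains join as heterotrimers that link end to end and side to side into a meshwork, which nidogens bridge to the laminin layer. The chains of collagen VIII form lattices in specialised basement membranes and vessel walls, and collagens XV and XVIII are carried at the border between basement membrane and stroma. In the lung this sheet lies under the airway and alveolar epithelium, and it is altered in fibrosis.

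The 10 members, Col4a1, Col4a2, Col4a5, Col4a6, Col8a1, Col8a2, Col15a1, Col18a1, Nid1 and Nid2, were picked out of the tables by gene symbol, as a set put together with earlier results of these data known. All 10 were among the 23282 gene rows of the count tables, and 8 of them passed the filter on low counts, which kept 12425 genes. Col15a1 and Nid2 did not pass it.

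The data were 3′ mRNA-seq read counts from C22 cells, with 3 libraries in each of 4 groups. C22 is a single cloned mouse club cell line that carries a temperature-sensitive large T antigen (H-2Kb-tsA58), and all 4 groups were differentiated and serum-starved for 2 h. NC cells received a negative control and siPdcd5 cells an siRNA against Pdcd5, the gene of programmed cell death 5. NC + TGF-β1 and siPdcd5 + TGF-β1 cells were also given 20 ng/ml TGF-β1, a cytokine that drives matrix production, for 24 h. The design asks how these genes respond to TGF-β1, how they respond to loss of Pdcd5, and whether the response to TGF-β1 depends on Pdcd5. The labels do not say whether replicates were separate cultures, so the p-values measure the spread between these libraries, which may be technical. The NC libraries serve 2 of the comparisons, as does every other group, so the comparisons are not independent of each other. Where groups of 3 libraries are said not to overlap, this is only a description. The share of all genes tested that separate in this way was not counted.

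Levels are given as CPM, the counts of a gene scaled to a common library total after TMM normalization, and with 12809857 to 17714828 counts per library a count of 3 corresponded to 0.165 to 0.239 CPM. Pdcd5 itself stood at 73.5, 65.8 and 65.1 CPM in NC, 66.3, 69.7 and 67.5 in NC + TGF-β1, 21.2, 20 and 22.1 in siPdcd5, and 24.1, 21.8 and 26.3 in siPdcd5 + TGF-β1. Every knockdown library was below every NC library, with log2 fold changes of −1.69 without TGF-β1 (adjusted p = 1.09e-06) and −1.49 with it (adjusted p = 5.47e-06). The club cell label was not borne out by the defining markers of that type. Scgb3a2, Cyp2f2 and Cckar were at 0 in all 12 libraries, Scgb1a1 had at most 1 count, and of 8 club markers only Aldh1a1 passed the filter, at 155 to 556 CPM. Aldh1a1 fell with TGF-β1 (log2 fold change −1.22 in NC and −0.93 in siPdcd5 cells). It was also lower after knockdown (−0.86 without TGF-β1 and −0.57 with it), each with an adjusted p of at most 0.00145. Endothelial markers, which would mark another source of type IV collagen, were near the floor, with a summed level of 0.585 to 2.47 CPM over 7 genes, Tie1 at 0 in all 12 libraries and Cdh5 at no more than 1 count. Of 7 fibroblast markers Tcf21 was at 0 and Lum at no more than 1 count, whereas Col1a1 and Col3a1 were abundant, and the summed level was 3750 to 3990 CPM in NC, 7420 to 8040 in NC + TGF-β1, 2540 to 3120 in siPdcd5 and 5590 to 5940 in siPdcd5 + TGF-β1. Col1a1 and Col3a1 made up nearly all of that sum, and Dcn and Col1a2 did not follow it in every comparison. Dcn fell with TGF-β1 (log2 fold change −2.08 in NC and −1.8 in siPdcd5 cells) and was higher after knockdown (0.59 without TGF-β1, adjusted p = 0.00234, and 0.88 with it, adjusted p = 0.000544). Col1a2 rose with TGF-β1 (2.78 and 1.72) and after knockdown without it (1.74, adjusted p = 0.000633). The 7 smooth muscle and pericyte markers summed to 536 to 586, 1490 to 1620, 259 to 319 and 801 to 832 CPM in the same order, most of it Acta2. The part of these marker genes in the results below was not tested, and in bulk RNA fewer cells of a kind and less RNA per cell cannot be told apart.

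Type IV collagen genes lie in head-to-head pairs, and their promoters are shown first. The pairs behaved differently here, and a part of the promoters in this was not tested. On mouse GRCm38, Col4a1 (chr8:11198423-11312826, minus strand, 52 exons) and Col4a2 (chr8:11312805-11449287, plus strand, 48 exons) overlap by 22 bases at their 5′ ends. Col4a6 (chrX:141165403-141474076, minus strand, 45 exons) and Col4a5 (chrX:141475385-141689234, plus strand, 53 exons) are arranged in the same way but do not overlap. The RefSeq windows of GRCm38.p6, from 250 bases before to 50 bases after each transcription start, are printed 5′ to 3′ on the strand of the gene. Capitals mark the letters of a motif searched on both strands. The motifs were the SMAD box, spelled CAGAC, the GC box, spelled GGGCGG, and the CCAAT box, whose name gives its letters. The TATA box was searched as TATAAA. The AP-1 site was searched as TGANTCA, and no stretch of these windows belonged to more than 1 kind of motif.
Col4a1 (chr8:11312777-11313076, minus strand): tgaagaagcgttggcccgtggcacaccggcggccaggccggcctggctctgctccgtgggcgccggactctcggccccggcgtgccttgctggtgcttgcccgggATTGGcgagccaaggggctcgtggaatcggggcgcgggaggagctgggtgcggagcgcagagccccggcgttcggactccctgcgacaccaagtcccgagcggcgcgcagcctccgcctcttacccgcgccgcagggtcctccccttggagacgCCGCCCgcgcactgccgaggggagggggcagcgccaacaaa
Col4a2 (chr8:11312555-11312854, plus strand): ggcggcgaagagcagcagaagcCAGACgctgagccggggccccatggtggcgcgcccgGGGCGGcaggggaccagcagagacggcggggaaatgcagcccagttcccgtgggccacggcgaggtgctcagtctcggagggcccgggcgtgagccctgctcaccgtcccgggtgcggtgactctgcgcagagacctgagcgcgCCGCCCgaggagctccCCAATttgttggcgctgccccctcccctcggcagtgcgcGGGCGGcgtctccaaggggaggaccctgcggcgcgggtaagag
Col4a6 (chrX:141474027-141474326, minus strand): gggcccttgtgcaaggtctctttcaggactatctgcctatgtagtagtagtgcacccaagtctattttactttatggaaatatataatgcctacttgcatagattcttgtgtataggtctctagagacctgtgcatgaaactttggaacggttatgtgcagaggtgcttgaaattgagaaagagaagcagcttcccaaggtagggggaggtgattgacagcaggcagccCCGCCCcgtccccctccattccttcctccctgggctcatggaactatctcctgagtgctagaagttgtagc
Col4a5 (chrX:141475169-141475468, plus strand): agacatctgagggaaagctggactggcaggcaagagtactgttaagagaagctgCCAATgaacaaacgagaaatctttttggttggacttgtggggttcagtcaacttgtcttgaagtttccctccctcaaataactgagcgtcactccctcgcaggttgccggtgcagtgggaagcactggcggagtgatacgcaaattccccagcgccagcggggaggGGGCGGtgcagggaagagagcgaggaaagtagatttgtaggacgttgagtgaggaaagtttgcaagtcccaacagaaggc
The starts of Col4a1 and Col4a2 are 21 bases apart, so the windows share 78 bases, and the GC box nearest both starts is the same stretch of DNA, beginning at position 11312812. Those windows are rich in G and C (74.0% and 73.7%) and hold 37 and 33 CpG, against medians of 52.7% and 7 over all 32851 windows in the table. The starts of Col4a6 and Col4a5 are 1343 bases apart, the windows share 0 bases, and their G and C content is 48.3% and 52.7%, with 3 and 11 CpG.

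Of the 10 members, 9 had a window in the RefSeq table, and Nid2 had none. The GC box was found in the windows of 8 of these 9 genes, all but Col15a1, against 35.7% of all windows. CAGAC was found for 4 of 9 genes (Col4a2, Col8a1, Col15a1 and, in one of its 2 windows, Col18a1), against 49.6% of all windows. CCAAT was found for 5 of 9, against 37.4%. Neither TATAAA nor TGANTCA was found for any of the 9, against 13.6% and 7.81% of all windows. The letters are a description of these windows and not evidence of binding. CAGAC stood in windows of Col4a2 and Col18a1, which rose with TGF-β1, and of Col8a1, which fell and whose window is printed here. It was absent from the window of Col4a1, which rose, and from those of Col4a5 and Col4a6, which fell. The CAGAC of Col4a2, at position 11312577, also lies within the Col4a1 gene. A part of these letters in the responses was not tested.
Col8a1 (chr16:57754688-57754987, minus strand): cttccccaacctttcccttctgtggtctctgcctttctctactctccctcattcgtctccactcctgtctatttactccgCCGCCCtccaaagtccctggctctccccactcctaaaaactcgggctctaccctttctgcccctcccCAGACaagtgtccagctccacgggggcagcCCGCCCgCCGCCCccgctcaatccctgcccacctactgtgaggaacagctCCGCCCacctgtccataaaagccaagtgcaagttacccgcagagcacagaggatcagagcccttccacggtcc

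TGF-β1 moved the type IV collagen genes in opposite directions by pair. In NC cells Col4a1, Col4a2 and Col18a1 rose 1.56-fold to 1.72-fold, whereas Col4a5, Col4a6 and Col8a1 fell 1.42-fold to 2.55-fold. In edgeR's quasi-likelihood test, with p adjusted by Benjamini-Hochberg over 12425 genes, 3 of 8 members tested passed an adjusted p of 0.05 as higher and 3 as lower, and of all genes tested 8.57% were called higher and 6.77% lower. In siPdcd5 cells 4 of 8 were called higher and 3 lower, against 8.5% and 7.61% of all genes. The 4 include Col8a2, whose call rests on few counts and was lost in most of the alternatives given below. The median log2 fold change of the 8 members was 0.25 in NC cells and 0.33 in siPdcd5 cells, against 0.005 and −0.026 over all genes tested, and these medians lie between genes that moved in opposite directions.

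The members called after loss of Pdcd5 were lower. Without TGF-β1, Col4a1, Col4a2, Col4a5, Col4a6 and Col8a1 were 1.28-fold to 2.01-fold lower in siPdcd5 than in NC cells, so that 5 of 8 members were called lower and 0 higher, against 2.54% and 0.901% of all genes. With TGF-β1, Col4a1, Col4a2, Col4a5 and Col8a1 were 1.36-fold to 1.96-fold lower, giving 4 of 8 called lower and 0 higher, against 1.22% and 0.33%. At an unadjusted p under 0.05 the counts were 6 lower and 0 higher in both comparisons, against 15.7% and 13.8% of all genes in either direction, and DESeq2's Wald test also called 0 higher. The median log2 fold change of the members was −0.43 and −0.41, against 0.022 and −0.017 over all genes. Col8a2 lay above 0 in both comparisons (0.49 and 0.47) and was not called. The counts depend on single libraries. Without TGF-β1 the 5 became 1 without NC replicate 2, 2 without NC replicate 1 or 3 and 3 without siPdcd5 replicate 1 or 3. With TGF-β1 the 4 became 1 without any 1 of the siPdcd5 + TGF-β1 libraries and 2 without NC replicate 3 or NC + TGF-β1 replicate 1 or 3.

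The response to TGF-β1 was not shown to depend on Pdcd5 for any member. The interaction, the difference between the response in siPdcd5 and in NC cells, was called for 0 of 8 members and for 0% of all genes in edgeR's quasi-likelihood test, with 0 members at an unadjusted p under 0.05 and 0 in DESeq2's Wald test. Over all genes 638 had an unadjusted p under 0.05, which is 5.13%, and DESeq2 called 15. The intervals below give the differences in response that these libraries could not separate from 0.

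**Figure D1:**
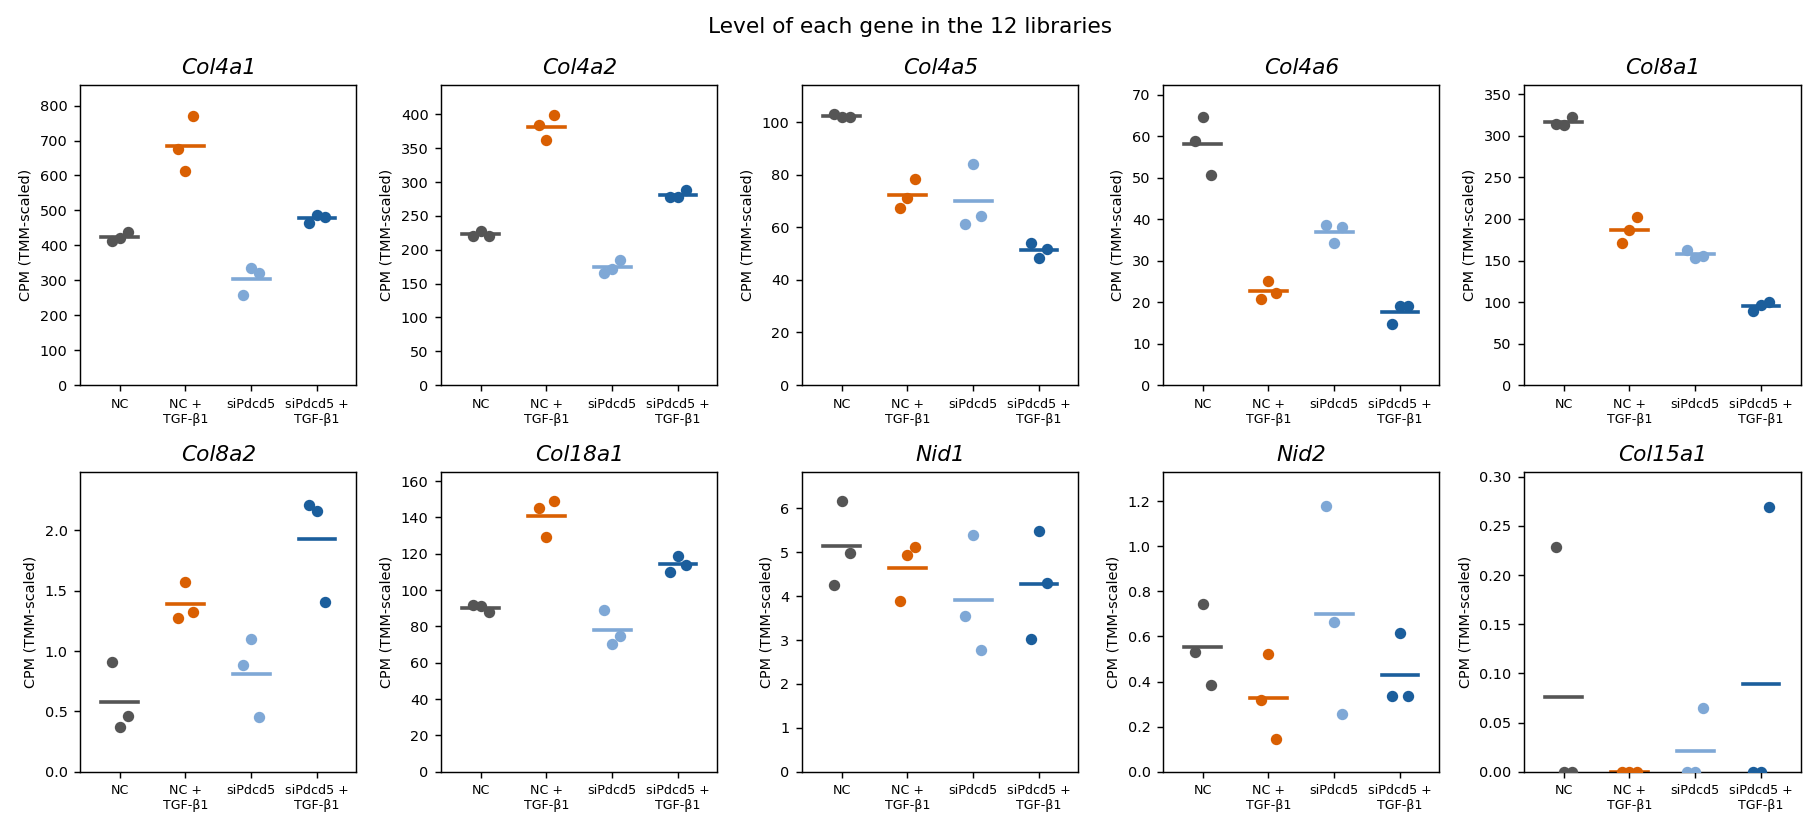
Each panel plots 1 gene, with the level in CPM (TMM-scaled) from 0 on the vertical axis and the 4 groups on the horizontal axis. Points are libraries and bars are means of 3; Col4a1 and Col4a2 are highest in NC + TGF-β1, Col4a5, Col4a6 and Col8a1 are highest in NC, and the panels of Col8a2, Nid1, Nid2 and Col15a1 rest on few counts.

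**Figure D2:**
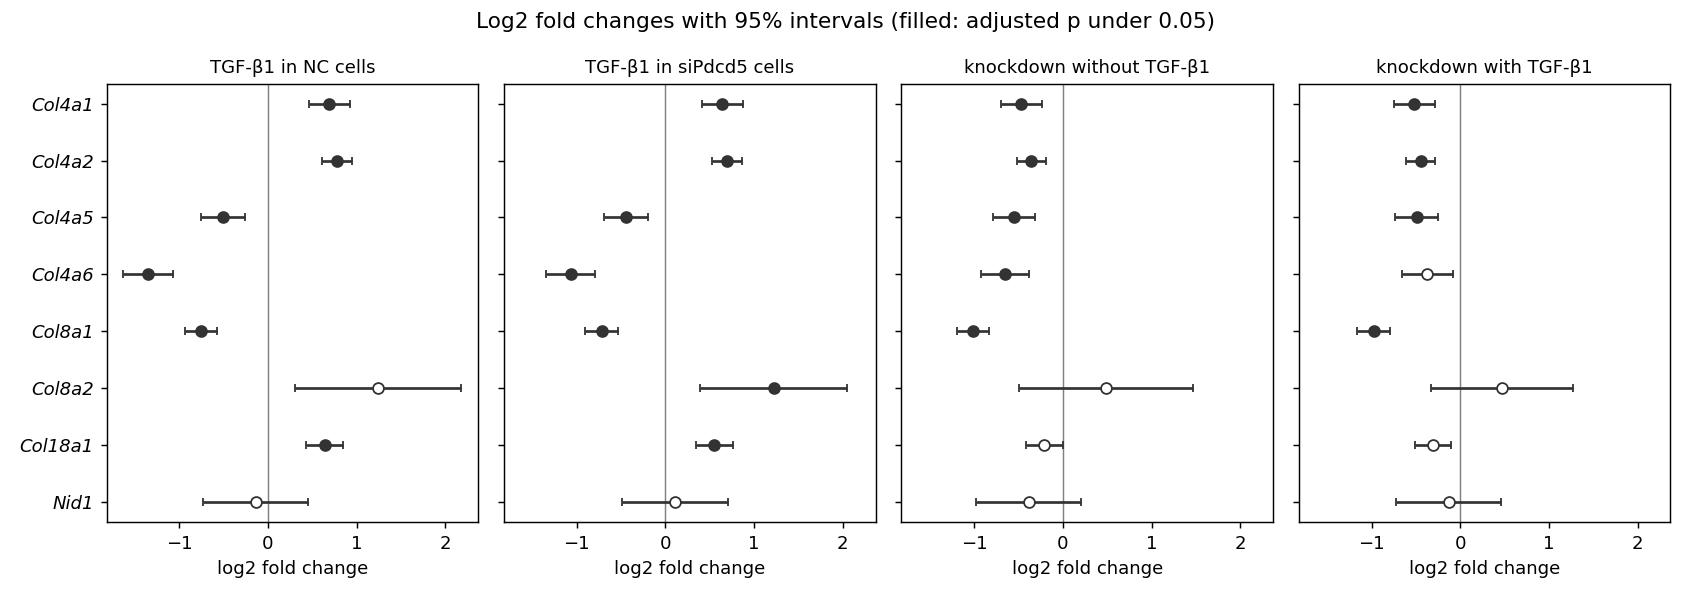
Log2 fold changes of the 8 members tested (horizontal axis) with 95% intervals derived from edgeR's test statistic, 1 panel for each comparison and filled points for an adjusted p under 0.05. TGF-β1 splits the genes to both sides of 0, whereas after knockdown the filled points all lie below 0.

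Col4a1 and Col4a2 encode the chains of the type IV collagen present in nearly every basement membrane. Col4a1 stood at 411, 421 and 439 CPM in NC, 675, 612 and 770 in NC + TGF-β1, 259, 334 and 322 in siPdcd5, and 463, 488 and 480 in siPdcd5 + TGF-β1. Every TGF-β1 library lay above every untreated library of the same arm, and every knockdown library lay below every NC library of the same treatment. The group means were 424 ± 14, 685 ± 79.4, 305 ± 40.4 and 477 ± 13.1 CPM (SD, n = 3 each). Col4a2 stood at 221, 227 and 220 CPM in NC, 385, 362 and 399 in NC + TGF-β1, 165, 172 and 185 in siPdcd5, and 278, 278 and 288 in siPdcd5 + TGF-β1. Its 4 groups were ordered in the same way and none overlapped another, with means of 223 ± 4.12, 382 ± 18.8, 174 ± 10.2 and 281 ± 6.18 CPM (SD, n = 3 each).

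After TGF-β1 Col4a1 rose by a log2 fold change of 0.69 ± 0.11 (SE; 1.62-fold, adjusted p = 0.000345) in NC cells and 0.64 ± 0.11 (1.56-fold, adjusted p = 0.00069) in siPdcd5 cells. The rise of Col4a2 was 0.78 ± 0.08 (1.72-fold, adjusted p = 6.2e-06) and 0.69 ± 0.08 (1.62-fold, adjusted p = 2.2e-05). The partners thus rose by similar amounts in both arms, and these calls held in each of the 19 alternatives run for them. The difference in response was −0.05 (95% interval −0.37 to 0.27, adjusted p = 0.994) for Col4a1 and −0.09 (−0.32 to 0.15, adjusted p = 0.972) for Col4a2.

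After knockdown without TGF-β1 Col4a1 fell by 0.47 ± 0.11 on the log2 scale (1.39-fold lower, adjusted p = 0.0255) and Col4a2 fell by 0.36 ± 0.08 (1.28-fold lower, adjusted p = 0.0216). With TGF-β1 the changes were −0.52 ± 0.11 (1.44-fold lower, adjusted p = 0.0257) and −0.44 ± 0.08 (1.36-fold lower, adjusted p = 0.00925). Col4a1 and Col4a2 in siPdcd5 + TGF-β1 cells were still above NC in every library. The knockdown calls are near the threshold and depend on single libraries. Without TGF-β1, the call of Col4a1 was lost when NC replicate 1, 2 or 3 was left out (adjusted p = 0.0727, 0.0945 and 0.103) or siPdcd5 replicate 1 or 3 (0.0647 and 0.0607). That of Col4a2 was lost without NC replicate 1, 2 or 3 (0.073, 0.104 and 0.065) and without siPdcd5 replicate 1 or 2 (0.062 and 0.0597). With TGF-β1, the call of Col4a1 was lost without siPdcd5 + TGF-β1 replicate 1, 2 or 3 (0.126, 0.1 and 0.108), NC + TGF-β1 replicate 1 or 3 (0.0699 and 0.0763) or NC replicate 3 (0.0518). That of Col4a2 was lost without siPdcd5 + TGF-β1 replicate 1, 2 or 3 (0.0647, 0.065 and 0.0506). Fitting only the 6 libraries compared lost both calls with TGF-β1 (adjusted p = 0.0907 for each gene) and that of Col4a2 without it (0.0513). The direction was the same in every alternative. The 3′ part of Col4a1 is overlapped by the antisense gene Gm15418 over 6081 bases, and the use of strand in counting is not stated, so reads of the antisense gene, not analysed here, cannot be told apart from those of Col4a1.

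The ratio of Col4a1 to Col4a2 counts within a library, which is not a ratio of molecules of protein, stayed in a narrow range. It was 1.86, 1.85 and 2 in NC, 1.75, 1.69 and 1.93 in NC + TGF-β1, 1.57, 1.94 and 1.74 in siPdcd5, and 1.67, 1.76 and 1.66 in siPdcd5 + TGF-β1. The groups overlapped in all 4 comparisons, and in exact two-sided permutation tests of 3 against 3 libraries p was 0.3 for TGF-β1 in NC cells, 0.8 for TGF-β1 in siPdcd5 cells, and 0.3 for knockdown without and with TGF-β1. The smallest p that 3 against 3 libraries can give is 0.1.

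Col4a5 and Col4a6 encode chains that assemble with each other in a more restricted set of basement membranes, the bronchial epithelium and smooth muscle among them. Col4a5 stood at 103, 102 and 102 CPM in NC, 67.4, 71 and 78.3 in NC + TGF-β1, 61.3, 84 and 64.4 in siPdcd5, and 54, 48.5 and 51.6 in siPdcd5 + TGF-β1. NC was above all other groups, siPdcd5 + TGF-β1 was below all others, and NC + TGF-β1 and siPdcd5 overlapped. The means were 103 ± 0.421, 72.2 ± 5.57, 69.9 ± 12.3 and 51.4 ± 2.76 CPM (SD, n = 3 each). Col4a6 stood at 58.9, 64.5 and 50.7 CPM in NC, 20.8, 25.2 and 22.3 in NC + TGF-β1, 38.5, 34.3 and 38.1 in siPdcd5, and 14.7, 19.1 and 19.1 in siPdcd5 + TGF-β1. Its 4 groups did not overlap, and both TGF-β1 groups lay below both untreated groups. The means were 58 ± 6.97, 22.8 ± 2.24, 37 ± 2.29 and 17.6 ± 2.55 CPM (SD, n = 3 each).

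With TGF-β1 Col4a6 fell by 1.35 ± 0.13 on the log2 scale in NC cells (2.55-fold lower, adjusted p = 4.23e-06) and fell by 1.07 ± 0.13 in siPdcd5 cells (2.1-fold lower, adjusted p = 4.91e-05). Col4a5 fell by 0.51 ± 0.11 (1.42-fold lower, adjusted p = 0.00643) and fell by 0.45 ± 0.11 (1.36-fold lower, adjusted p = 0.0151). Both chains fell in both arms, Col4a6 by more. The Col4a5 call in siPdcd5 cells was lost without siPdcd5 replicate 2 (adjusted p = 0.0671) and without siPdcd5 + TGF-β1 replicate 2 or 3 (0.0708 and 0.0514). The other calls of the pair for TGF-β1 held in each alternative. The difference in response was 0.28 (95% interval −0.11 to 0.68, adjusted p = 0.958) for Col4a6 and 0.06 (−0.29 to 0.4, adjusted p = 0.994) for Col4a5.

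In cells without TGF-β1 the knockdown lowered Col4a5 by a log2 fold change of −0.55 ± 0.11 (1.46-fold, adjusted p = 0.0148) and Col4a6 by −0.65 ± 0.13 (1.57-fold, adjusted p = 0.0105). The Col4a6 call was lost without NC replicate 2 (adjusted p = 0.0703), and that of Col4a5 without NC replicate 1, 2 or 3 (0.0605, 0.0646 and 0.0592) or siPdcd5 replicate 3 (0.0827). With TGF-β1 the values were −0.49 ± 0.11 for Col4a5 (1.41-fold, adjusted p = 0.0492) and −0.37 ± 0.13 for Col4a6 (adjusted p = 0.215). Col4a5 thus just passed the threshold and Col4a6 did not. The Col4a5 call with TGF-β1 held without NC + TGF-β1 replicate 2, siPdcd5 replicate 1 or siPdcd5 replicate 2 and was lost without any of the other libraries, the adjusted p then lying between 0.0634 and 0.21. It was also lost with upper-quartile factors (0.0541), quantile normalization (0.0595), a filter of 10 counts in every library (0.0501), the replicate block (0.0973) and the 6 libraries compared alone (0.105), so that it passed in 5 of 19 alternatives.

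Unlike the Col4a1 and Col4a2 pair, the Col4a5 and Col4a6 pair had a higher ratio of counts in every TGF-β1 library, within an arm. The ratio of Col4a5 to Col4a6 was 1.75, 1.59 and 2.02 in NC, 3.24, 2.82 and 3.51 in NC + TGF-β1, 1.59, 2.45 and 1.69 in siPdcd5, and 3.68, 2.54 and 2.7 in siPdcd5 + TGF-β1. The means of the untreated groups lay close together, and so did those of the TGF-β1 groups. In the siPdcd5 arm the highest untreated ratio, 2.45, came near the lowest TGF-β1 ratio, 2.54. The means were 1.79 ± 0.219, 3.19 ± 0.349, 1.91 ± 0.467 and 2.97 ± 0.616 (SD, n = 3 each). In exact two-sided permutation tests p was 0.1 for TGF-β1 in either arm, which is the smallest that 3 against 3 libraries can give, so the design cannot reach 0.05 for this ratio. For knockdown p was 0.8 without and 0.7 with TGF-β1 (exact, two-sided).

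**Figure D3:**
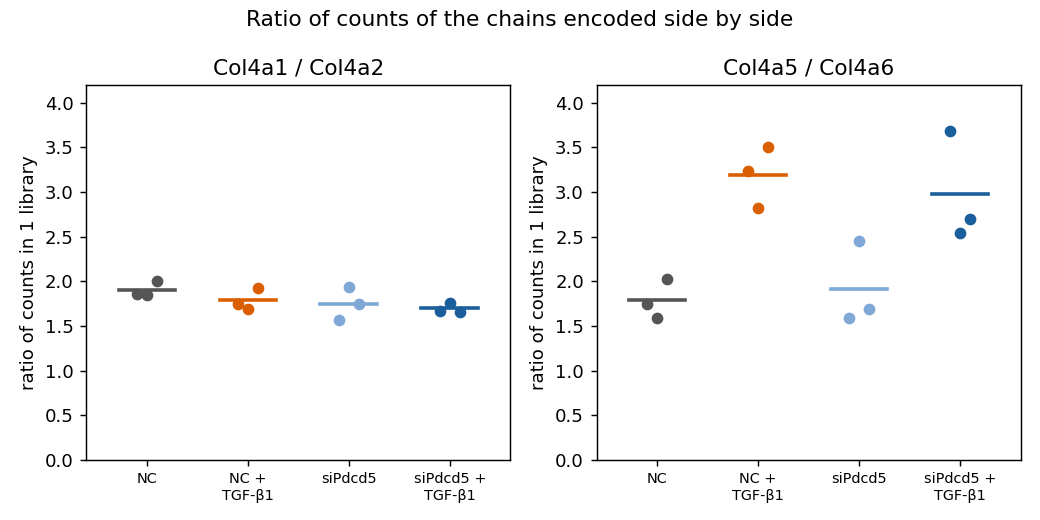
Ratio of read counts of the 2 chains encoded head to head, within each library (vertical axis, from 0), by group. Points are libraries and bars are means of 3; Col4a1/Col4a2 lies between 1.57 and 2 throughout, and Col4a5/Col4a6 is higher in the TGF-β1 groups than in the untreated groups of the same arm.

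The remaining head-to-head pair of type IV chains is Col4a3 and Col4a4, which are known from kidney and alveolar basement membranes. Both were barely expressed, with group means of 0.279 to 0.843 CPM for Col4a3 and 0.65 to 0.954 CPM for Col4a4. Neither was called in any comparison, with adjusted p from 0.39 upward for Col4a3 and from 0.746 upward for Col4a4. Col10a1, a network-forming chain of growth cartilage, did not pass the filter.

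Col8a1 and Col8a2 encode the chains of collagen VIII, a short network-forming collagen of endothelial and corneal basement membranes that is also made by smooth muscle. Col8a1 (chr16:57624258-57754737, minus strand, 4 exons) stood at 314, 313 and 323 CPM in NC, 171, 187 and 202 in NC + TGF-β1, 163, 153 and 156 in siPdcd5, and 88.7, 96.6 and 100 in siPdcd5 + TGF-β1. The 4 groups did not overlap, with NC at the top and siPdcd5 + TGF-β1 at the bottom, and their means were 316 ± 5.41, 187 ± 15.5, 157 ± 5.31 and 95.2 ± 5.88 CPM (SD, n = 3 each). TGF-β1 and the knockdown each lowered the gene, and the group with both was the lowest. After TGF-β1 Col8a1 fell by 0.76 ± 0.08 on the log2 scale in NC cells (1.69-fold lower, adjusted p = 1.77e-05) and fell by 0.72 ± 0.09 in siPdcd5 cells (1.65-fold lower, adjusted p = 3.44e-05). After knockdown it fell by 1.01 ± 0.09 without TGF-β1 (2.01-fold lower, adjusted p = 1.88e-05) and fell by 0.97 ± 0.09 with it (1.96-fold lower, adjusted p = 5.6e-05). The size of a knockdown change was larger for Col8a1 than for the other members called, and all 4 calls held in each of the 19 alternatives, with an adjusted p of at most 0.00913. The difference in response was 0.04 (95% interval −0.22 to 0.29, adjusted p = 0.994), so the 2 changes added up on the log2 scale within that interval.

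Col8a2 (chr4:126286793-126314330, plus strand, 4 exons) was near the limit of detection, at 12, 5 and 6 counts in NC, 16, 21 and 18 in NC + TGF-β1, 12, 20 and 7 in siPdcd5, and 33, 28 and 21 in siPdcd5 + TGF-β1. As CPM these were means of 0.581 ± 0.29, 1.39 ± 0.16, 0.813 ± 0.332 and 1.93 ± 0.449 (SD, n = 3 each). Every TGF-β1 library was above every untreated library of its arm. The log2 fold change was 1.24 ± 0.44 in NC cells (adjusted p = 0.0724) and 1.22 ± 0.39 in siPdcd5 cells (2.33-fold, adjusted p = 0.0452), so the gene was called higher only in the second comparison, and the difference in response was −0.02 (95% interval −1.1 to 1.06, adjusted p = 0.999). The depth behind these values does not carry a firm statement. Leaving out NC replicate 1 brought the first value to 1.72 with an adjusted p of 0.043. The second call held without NC replicate 1, NC + TGF-β1 replicate 2 or siPdcd5 replicate 2 and was lost without any other library, with adjusted p from 0.05 to 0.156. It was also lost with upper-quartile factors (0.0518), no filter (0.0646) and the 6 libraries compared alone (0.0541), so that it passed in 6 of 18 alternatives. After knockdown the groups overlapped, with log2 fold changes of 0.49 ± 0.46 (adjusted p = 0.68) and 0.47 ± 0.37 (adjusted p = 0.638).

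Col18a1, the gene of collagen XVIII whose C-terminal fragment is endostatin, followed Col4a1 and Col4a2 with TGF-β1. It lies at chr10:77052178-77166548 on the minus strand with 41 exons. Its level was 91.8, 91.5 and 87.7 CPM in NC, 145, 129 and 149 in NC + TGF-β1, 88.9, 70.3 and 74.7 in siPdcd5, and 110, 119 and 114 in siPdcd5 + TGF-β1. Both TGF-β1 groups were above both untreated groups, whereas NC and siPdcd5 overlapped. The means were 90.3 ± 2.24, 141 ± 10.8, 78 ± 9.73 and 114 ± 4.69 CPM (SD, n = 3 each). The rise after TGF-β1 was 0.64 ± 0.1 on the log2 scale in NC cells (1.56-fold, adjusted p = 0.00032) and 0.55 ± 0.1 in siPdcd5 cells (1.46-fold, adjusted p = 0.00124), and both calls held in each alternative. After knockdown the values were −0.21 ± 0.1 without TGF-β1 (adjusted p = 0.315) and −0.31 ± 0.1 with it (adjusted p = 0.156), neither of which passed the test. The difference in response was −0.09 (95% interval −0.39 to 0.2, adjusted p = 0.98). The 3′ end of Col18a1 overlaps Slc19a1, a folate transporter gene on the opposite strand, by 8825 bases, so that the same doubt about strand applies. Slc19a1 was at group means of 14 to 16 CPM and was not called in any comparison, with log2 fold changes of 0.04 and 0.20 for TGF-β1 and −0.15 and 0.01 for knockdown.

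Col15a1 (chr4:47208161-47313167, plus strand, 40 exons), the relative of Col18a1, had 3, 0 and 0 counts in NC, 0 in all 3 NC + TGF-β1 libraries, 0, 0 and 1 in siPdcd5, and 0, 0 and 4 in siPdcd5 + TGF-β1. At these depths it was not detectable as expressed, and no fold is given.

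The nidogens, glycoproteins that tie the laminin and collagen IV layers together, were low, and no change in Nid1 passed the test. Nid1 (chr13:13437551-13512269, plus strand, 20 exons) stood at 4.26, 6.16 and 4.99 CPM in NC, 3.9, 4.93 and 5.12 in NC + TGF-β1, 3.54, 5.4 and 2.77 in siPdcd5, and 3.02, 5.48 and 4.3 in siPdcd5 + TGF-β1. All 4 groups overlapped, and their means were 5.13 ± 0.957, 4.65 ± 0.655, 3.9 ± 1.35 and 4.27 ± 1.23 CPM (SD, n = 3 each). No comparison passed the test, with log2 fold changes of −0.14 ± 0.28 (adjusted p = 0.806) and 0.11 ± 0.28 (0.837) for TGF-β1 in NC and siPdcd5 cells and −0.38 ± 0.28 (0.562) and −0.13 ± 0.28 (0.892) for knockdown without and with it. The difference in response was 0.25 with a 95% interval of −0.59 to 1.09 (adjusted p = 0.981). Nid2 (chr14:19751265-19811787, plus strand, 21 exons) had 7, 10 and 5 counts in NC, 4, 7 and 2 in NC + TGF-β1, 16, 12 and 4 in siPdcd5, and 5, 8 and 5 in siPdcd5 + TGF-β1, and all groups overlapped. Its last 437 bases overlap the opposite-strand gene Rtraf, listed under its older symbol 2700060E02Rik, at group means of 89.2 to 107 CPM.

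Each gene's profile over the 12 libraries was compared with that of every other gene tested, as the root mean square difference of log2 CPM after each profile was centred on its own mean. Profiles were not scaled, so genes that move the same way by different amounts lie apart. The nearest to Col4a1 were Tns1 (0.0616), Fkbp10 (0.0756) and Lmo4 (0.0938), and Col4a2 came at rank 4 with 0.101, against a median of 0.502 over all genes. The nearest to Col4a2 were Rcn1 (0.0425), Htra1 (0.075) and Lmo4 (0.0833), and Col4a1 came at rank 6. By contrast, Col4a6 was at rank 5171 for Col4a5, with a distance of 0.424 close to the median of 0.445, although both had log2 fold changes below 0 in all 4 comparisons of groups. The genes nearest to Col4a5 were Egfr (0.0948), Crim1 (0.107) and Grk5 (0.114). For Col4a6 the nearest were Alcam (0.165), 9930012K11Rik (0.169) and Wnt4 (0.171), with Col4a5 at rank 283. Col8a1 was nearest to Car13 (0.141), Plcb1 (0.192) and Ogn (0.215), with Col4a5 the closest member at rank 31. Col18a1 was nearest to Itgb1 (0.0993), Nuak2 (0.102) and Cast (0.105), with Col4a2 at rank 44. Col8a2 was nearest to Tlcd2 (0.286), Chst11 (0.318) and Hk2 (0.331), and Nid1 to Sfxn4 (0.189), Lrch3 (0.21) and Ints6 (0.215). These distances describe 12 libraries that share 4 groups and carry no test.

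Some laminin chains, which form the other network of the basement membrane, rose after TGF-β1. Of 10 laminin chain genes considered 6 were tested, of which 3 were called higher and 0 lower in NC cells and 2 higher and 0 lower in siPdcd5 cells. Of all genes tested 8.57% and 8.5% were called higher and 6.77% and 7.61% lower. The medians of the 6 were 0.4 and 0.03, against 0.005 and −0.026 over all genes, and 0 were lower at an unadjusted p under 0.05. Lamb3, a chain of the laminin under epithelial hemidesmosomes, rose by log2 fold changes of 3.55 ± 0.12 in NC cells (adjusted p = 4.91e-10) and 3.39 ± 0.12 in siPdcd5 cells (adjusted p = 8.59e-10). Lamb1, a chain of many basement membrane laminins, rose by 0.42 ± 0.08 (adjusted p = 0.00139) and 0.73 ± 0.08 (adjusted p = 1.24e-05). Lamc1, its common partner, rose by 0.55 ± 0.12 in NC cells (adjusted p = 0.00667) and was not called in siPdcd5 cells (0.29 ± 0.13, adjusted p = 0.139). After knockdown 1 of 6 was called lower and 0 higher in each comparison, Lamb1 without TGF-β1 (−0.48 ± 0.08, adjusted p = 0.00286) and Lamc1 with it (−0.54 ± 0.12, adjusted p = 0.0492). The shares of all genes called lower were 2.54% and 1.22%. The medians over the 6 were −0.29 and −0.35, against 0.022 and −0.017 over all genes, and 0 of the 6 were higher at an unadjusted p under 0.05.

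Of 14 other basement membrane proteins 13 had a row and 7 were tested. After TGF-β1 2 were called higher and 1 lower in each arm. Over all genes 8.57% were called higher and 6.77% lower in NC cells, and 8.5% and 7.61% in siPdcd5 cells. Col7a1, the anchoring fibril collagen, rose by 1.49 ± 0.26 in NC (adjusted p = 0.00116) and 1.32 ± 0.26 in siPdcd5 cells (adjusted p = 0.00261). Sparc, a collagen-binding glycoprotein, rose by 0.63 ± 0.17 (adjusted p = 0.0207) and 0.62 ± 0.17 (adjusted p = 0.024). Npnt (nephronectin), an integrin ligand of basement membranes, went the other way, with −1.81 ± 0.26 (adjusted p = 0.000188) and −1.57 ± 0.26 (adjusted p = 0.000733). After knockdown Npnt was the only one of the 7 called without TGF-β1 (−1.04 ± 0.25, adjusted p = 0.0359), where 2.54% of all genes were called lower. None was called with TGF-β1 in edgeR's test, where 2 were lower at an unadjusted p under 0.05, against 13.8% of all genes in either direction. Medians over the 7 were 0.27, 0.04, −0.14 and −0.32 for TGF-β1 in NC cells, TGF-β1 in siPdcd5 cells, knockdown without and knockdown with TGF-β1.

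The collagen chaperones and modifying enzymes, on which secretion and crosslinking of collagen depend, were called more often after TGF-β1 than after knockdown. The same held for all genes tested, of which 8.57% and 8.5% were called higher after TGF-β1 in NC and siPdcd5 cells. After knockdown 2.54% of all genes were called lower without TGF-β1 and 1.22% with it. Of 14 genes 13 were tested, and TGF-β1 raised 10 in NC cells and 7 in siPdcd5 cells and lowered 0, also at an unadjusted p under 0.05, with medians of 0.59 and 0.52. Lox, the collagen crosslinking oxidase, rose by 1.74 ± 0.14 (adjusted p = 7.36e-07) and 2.19 ± 0.14 (adjusted p = 1.14e-07), and Plod2, a lysyl hydroxylase, by 1.63 ± 0.11 (adjusted p = 1.01e-07) and 1.35 ± 0.1 (adjusted p = 6.12e-07). Pxdn, the peroxidase that forms the sulfilimine bond between type IV collagen molecules, rose by 0.59 ± 0.15 in NC cells (adjusted p = 0.0133). In siPdcd5 cells Pxdn rose by 0.92 ± 0.15 (adjusted p = 0.000703). Plod1, another lysyl hydroxylase, rose by 0.94 ± 0.16 in NC cells (adjusted p = 0.00108) and 0.72 ± 0.16 in siPdcd5 cells (adjusted p = 0.00729). Fewer of them were called after knockdown, as was the case over all genes. Without TGF-β1, 4 of 13 had a log2 fold change above 0 and 9 below, and 3 of 13 were called lower and 0 higher, namely Pxdn (−0.74 ± 0.15, adjusted p = 0.0161), Lox (−0.73 ± 0.14, adjusted p = 0.00812) and P4ha1, a prolyl hydroxylase subunit (−0.46 ± 0.11, adjusted p = 0.0338). With TGF-β1 all 13 had a log2 fold change below 0, and 2 were called lower and 0 higher, P4ha1 (−0.57 ± 0.11, adjusted p = 0.0166) and Loxl2 (−0.48 ± 0.11, adjusted p = 0.0491). The medians after knockdown were −0.11 and −0.27, against 0.022 and −0.017 over all genes, and 0 genes of the list were higher at an unadjusted p under 0.05. Of all genes tested 53.8% had a log2 fold change above 0 after knockdown without TGF-β1 and 46.4% with it.

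Among 9 receptors for basement membrane 8 were tested. Itgb1, the integrin beta subunit shared by the laminin and collagen receptors, rose with TGF-β1 by 0.68 ± 0.08 in NC (adjusted p = 3.24e-05) and 0.66 ± 0.08 in siPdcd5 cells (adjusted p = 4.88e-05), and was the only receptor called higher. Over all genes the shares called higher were 8.57% and 8.5%, and 6.77% were called lower with TGF-β1 in NC cells. Ddr1, a collagen-binding receptor kinase, fell by 0.48 ± 0.11 with TGF-β1 in NC cells (adjusted p = 0.0062) and was not called in siPdcd5 cells (−0.11 ± 0.11, adjusted p = 0.539). With knockdown alone Ddr1 fell by 0.63 ± 0.11 (adjusted p = 0.00476). Knockdown without TGF-β1 also lowered Itga1 (−1.66 ± 0.38, adjusted p = 0.0273) and Itga3 (−0.53 ± 0.13, adjusted p = 0.0424). That made 3 of 8 lower and 0 higher, against 2.54% and 0.901% of all genes. With TGF-β1 0 of 8 were called, and 5 were lower at an unadjusted p under 0.05, against 13.8% of all genes in either direction. Medians over the 8 were −0.05, −0.07, −0.22 and −0.27 in the order given above.

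Of 9 proteases that cleave basement membrane 7 were tested, and the members of this list did not move together. Mmp14, the membrane-bound activator of Mmp2, rose by 1.17 ± 0.09 (adjusted p = 5.65e-07) and 0.93 ± 0.09 (adjusted p = 5.38e-06), and Mmp2, a gelatinase, by 0.63 ± 0.08 (adjusted p = 3.58e-05) and 0.39 ± 0.08 (adjusted p = 0.0025) in NC and siPdcd5 cells. Mmp3 (stromelysin) went down, with −2.53 ± 0.24 (adjusted p = 4.2e-06) and −2.12 ± 0.22 (adjusted p = 1.24e-05). Knockdown with TGF-β1 was followed by a lower Mmp14 (−0.4 ± 0.09, adjusted p = 0.0428) and a higher Mmp10 (0.97 ± 0.21, adjusted p = 0.0307). Over all genes 1.22% were called lower and 0.33% higher in that comparison. Knockdown without TGF-β1 was followed by no call, with 1 protease higher at an unadjusted p under 0.05, against 15.7% of all genes in either direction. Medians over the 7 were 0.63, 0.06, 0.03 and −0.28. The interaction was called for 0 genes of any of these lists. The genes of the lists were not refitted under the alternatives used for the members.

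**Figure D4:**
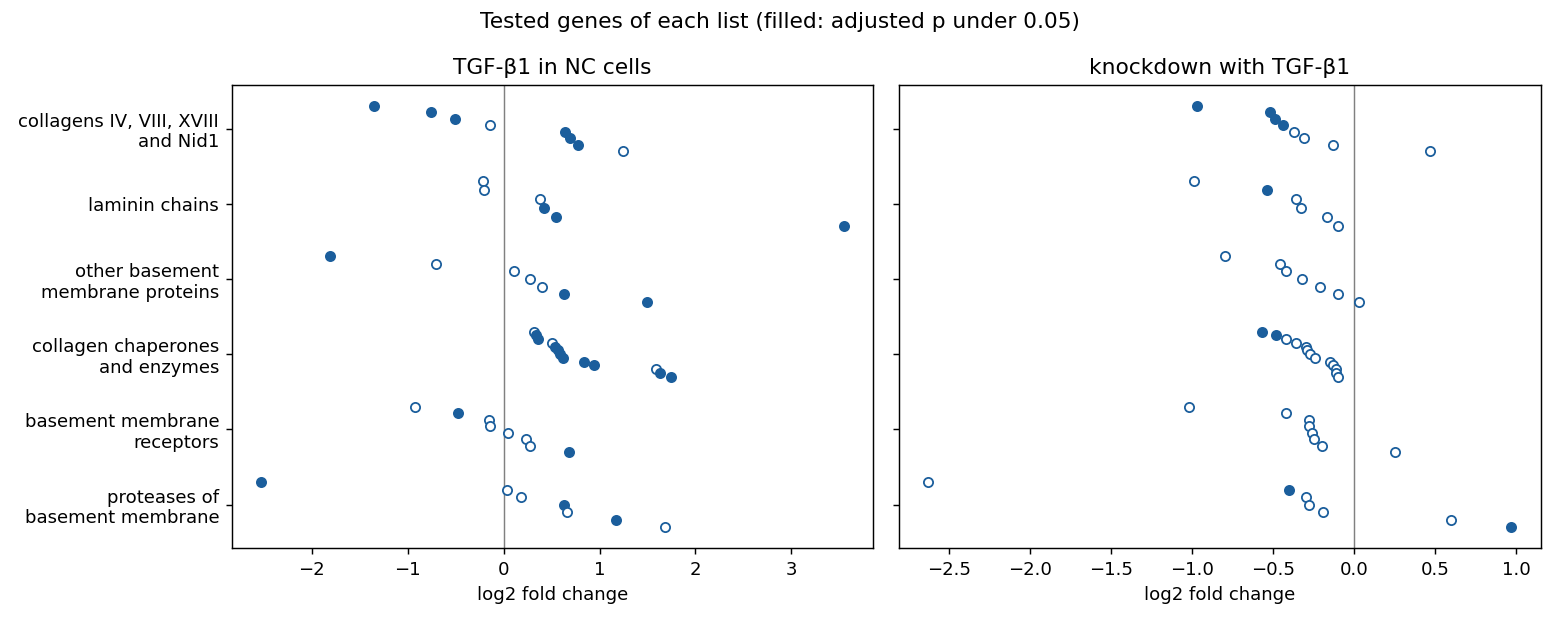
Log2 fold changes (horizontal axis) of the tested genes of each list, for TGF-β1 in NC cells and for knockdown with TGF-β1, with 1 point for each gene and filled points for an adjusted p under 0.05. The chaperones and enzymes all lie above 0 with TGF-β1 and below 0 after knockdown, whereas the collagens and nidogen of the first row lie on both sides of 0 with TGF-β1.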

How the data were processed

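The authors prepared the libraries with a QuantSeq 3′ mRNA-seq kit from 500 ng of total RNA, ran Bowtie2 for alignment, and took gene counts from both unique and multiple alignments by Bedtools coverage. The deposited values are whole-number read counts per gene symbol without normalization. The labels name mm10, the paper names quantile normalization in edgeR as a later step, and the annotation and the use of strand are not given in the sources used here. The 12 tables share 23282 rows, of which 44 repeat a symbol and 5134 hold no count. Groups and replicate numbers were taken from the labels, and no 2 libraries of a group agreed within sampling noise.

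Counts were analysed with R 4.3.3 and edgeR 4.0.16. After edgeR's default filter, TMM scaling and a quasi-likelihood fit of the 4 groups over all 12 libraries, each comparison was a contrast, and an adjusted p (Benjamini-Hochberg over 12425 genes) under 0.05 was called. A prior count of 2 was used for log2 CPM. The fit was tested on simulated data. The alternatives were DESeq2 1.42.0, quantile normalization with limma-trend (limma 3.58.1), upper-quartile scaling, a filter of 10 counts in every library, no filter, the 6 libraries compared alone, the replicate block and each library left out. The floor of 3 counts covers counting error only, since the reads carry no molecular identifiers. Positions come from GENCODE on GRCm38 and promoter windows from RefSeq.

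The members and the lists of genes were chosen with earlier results of these data known. Every member is named, and from each list at most the 3 genes with the largest absolute log2 fold change among those called in a comparison, and for each member tested the 3 genes with the nearest profile. One gene of these lists is not reported here and was left out of their counts.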

Additional observations from a re-analysis of the deposited data

How the results depend on the processing

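Of the alternatives for single members, 671 kept the direction and the side of the threshold, 56 lost the call, 1 gained it and 18 changed sign, and no change of sign concerned a called value. The number of members called after knockdown with TGF-β1 was 1 in place of 4 when only the 6 libraries compared were fitted. Leaving out 1 library gave 1 to 5 members for knockdown without TGF-β1 (1 without NC replicate 2) and 1 to 4 with it (1 without any siPdcd5 + TGF-β1 library). With DESeq2 the counts over all genes were 714 and 459 in place of 427 and 192 for knockdown without and with TGF-β1, 44 for the latter with 6 libraries, and 15 in place of 0 for the interaction. Over single libraries left out they were 167 to 667, 73 to 322 and 0 to 2. Quantile normalization moved the split after knockdown with TGF-β1 from 41 higher and 151 lower to 51 and 110. The causes were not tested.

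Same-numbered libraries did not deviate together as a rule, with correlations between their deviations from the group means of −0.32 to 0.17. With the replicate block the members called were 6, 7, 5, 3 and 0 for TGF-β1 in NC cells, TGF-β1 in siPdcd5 cells, knockdown without and with TGF-β1 and the interaction, the one lost being Col4a5 with TGF-β1 (adjusted p = 0.0973), and over all genes 107 in place of 192 were called after knockdown with TGF-β1.

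The sign changed for values near 0. The interaction of Col8a2 was 0.12 with quantile normalization, 0 without a filter and −0.49 to 0.29 with a library left out. Leaving out a library also gave −0.26 to 0.01 for Nid1 after TGF-β1 in NC cells, −0.1 to 0.43 in siPdcd5 cells, −0.35 to 0.07 after knockdown with TGF-β1, and for the interaction −0.14 to 0.04 for Col4a1, −0.01 to 0.22 for Col4a5, −0.02 to 0.09 for Col8a1 and −0.16 to 0.03 for Col18a1. The fit with 6 libraries was not run for the interaction, which needs all 12. Depth limits Col8a2, Nid1 and Nid2, and Col8a2 is not tested under the filter of 10 counts.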
